A study of Homo sapiens with 6 samples.

Results

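Regions of 2 gene neighbourhoods were examined here for ubiquitylated histone H2A.Z (Ub-H2A.Z below) and total H2A.Z: those around TERT and the Iroquois homeobox genes IRX4, IRX2 and IRX1 on chromosome 5, and those around IRX3 and IRX5 on chromosome 16. Peaks of ubiquitylated and of total H2A.Z that overlapped or touched were merged, and every merged region with its midpoint in chr5:1200000-3800000 or chr16:54250000-55050000 (hg19) was kept. This gave 917 of 198179 merged regions, 849 on chromosome 5 and 68 on chromosome 16. The rule itself uses peak position only, but the 2 windows were picked with earlier results of these data known.

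The data came from HEK293T cells, a widely used line of human embryonic kidney origin. Cells of all 3 groups were transfected, per the labels' protocols, with H2A.Z-1 fused at its C-terminus to Flag and the biotin ligase BirA, and with ubiquitin that carries the AviTag, the peptide that BirA biotinylates. Both came from plasmids, at a ratio of 3 to 1, and cells were harvested 48 hours afterwards. Nuclei of every group were digested for 30 min with micrococcal nuclease (MNase), which cuts the DNA between nucleosomes. Streptavidin recovered chromatin with biotinylated ubiquitin (Ub-H2A.Z, 2 samples), Flag agarose recovered tagged H2A.Z as a whole (total H2A.Z, 2 samples), and an antibody recovered histone H3 (2 samples). As a model, the tagged histone is expressed from a plasmid beside the cells' own H2A.Z, and only ubiquitin near BirA is labelled. The 2 pull-downs used different reagents, and effects of the reagent and of ubiquitylation cannot be told apart. The deposited lists give 1 value per peak or region for a group and none per library, so depth is unknown. The authors' irreproducible discovery rate (IDR) per peak and false discovery rate (FDR) per region are therefore the only measures of replicate spread. The labels do not say that the replicates were grown separately, so this spread may be technical.

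The histone variant H2A.Z replaces H2A at promoters and enhancers, and also in silent chromatin. Its ubiquitylation at C-terminal lysines by the Polycomb protein RING1B is known from the inactive X chromosome and from other silenced sites. The Iroquois genes encode homeodomain transcription factors that pattern the embryo. In vertebrates they lie in paralogous clusters, one of IRX1, IRX2 and IRX4 and one of IRX3, IRX5 and IRX6, and several take part in kidney and heart development. TERT encodes the catalytic subunit of telomerase. In gene order on the reference (RefSeq, GRCh38.p14, used for names, order and promoter letters only), the chromosome 5 members run TERT, IRX4, IRX2 and IRX1. Genes that precede TERT in the window were not listed. Between TERT and IRX4 the table lists 8 protein-coding genes. They include SLC6A3, the dopamine transporter, LPCAT1, a phospholipid acyltransferase, CLPTM1L, and the mitochondrial genes MRPL36 and NDUFS6. Between IRX4 and IRX2 it lists 1, and between IRX2 and IRX1 none, nor between IRX3 and IRX5. Gene positions on hg19 were not used here, so regions are given by coordinate and were not assigned to a promoter, exon or intron.

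The promoters of the chromosome 5 members are rich in CpG, the dinucleotide that marks CpG islands. They are shown because this richness is shared by the genes and was not used to choose the regions. Whether an H2A.Z peak lay on them was not examined, since the builds differ. Each sequence below holds the 250 bases upstream of the outermost start listed by RefSeq (GRCh38.p14), 5′ to 3′ on the gene's strand, with every CpG (CG, which reads the same on both strands) in capitals. The IRX4 stretch lies at chr5:1887180-1887429 on the minus strand, the IRX2 stretch at chr5:2751678-2751927 on the minus strand and the IRX1 stretch at chr5:3595582-3595831 on the plus strand, all in GRCh38.p14.
IRX4: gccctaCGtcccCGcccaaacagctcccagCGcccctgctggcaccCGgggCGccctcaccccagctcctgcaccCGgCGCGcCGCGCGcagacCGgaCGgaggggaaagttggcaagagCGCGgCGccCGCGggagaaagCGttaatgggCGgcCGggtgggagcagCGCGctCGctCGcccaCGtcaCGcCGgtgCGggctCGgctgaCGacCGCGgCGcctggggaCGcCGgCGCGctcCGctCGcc
IRX2: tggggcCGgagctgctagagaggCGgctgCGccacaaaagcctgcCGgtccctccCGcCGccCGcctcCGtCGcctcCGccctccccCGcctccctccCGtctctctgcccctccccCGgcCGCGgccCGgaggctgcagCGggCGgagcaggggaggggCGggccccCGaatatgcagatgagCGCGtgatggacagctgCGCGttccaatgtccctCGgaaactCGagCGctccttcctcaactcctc
IRX1: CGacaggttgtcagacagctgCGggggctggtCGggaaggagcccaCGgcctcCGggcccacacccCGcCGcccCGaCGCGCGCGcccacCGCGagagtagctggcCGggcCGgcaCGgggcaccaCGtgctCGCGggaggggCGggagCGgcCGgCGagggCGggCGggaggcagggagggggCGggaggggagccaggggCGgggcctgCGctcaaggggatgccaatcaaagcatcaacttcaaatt
IRX4 has 40 CpG in these 250 bases, IRX1 has 29 and IRX2 has 27, and TERT has 28. Over 35116 RefSeq promoters the median was 11 (quartiles 3 and 23), so all 4 lay above the upper quartile. As many CpG as in IRX4 were found in 2.16% of promoters, and as many as in IRX2 in 17.7%. Their GC content ran from 72.8% in IRX2 to 78.8% in TERT, against a median of 58.0%. Of the 6 member genes, 4 were matched to a RefSeq promoter, and IRX3 and IRX5 were not.

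The chromosome 5 window held H2A.Z regions in dense succession and the chromosome 16 window far fewer. There were 327 merged regions per Mb around TERT and IRX4, IRX2 and IRX1, and 85.0 per Mb around IRX3 and IRX5, where the genome averaged 65.9 per Mb between the first and last region of each chromosome. The regions covered 15.4% of the 2.6 Mb on chromosome 5 and 3.34% of the 0.8 Mb on chromosome 16. The median gap to the next region was 850 bp on chromosome 5, 4818 bp on chromosome 16 and 2161 bp over all regions. Cut into pieces of 2.6 Mb, the genome gave 1137 pieces with a median of 101 regions, and 13 of them held at least 849. For pieces of 0.8 Mb, 928 of 3591 held at least 68. The window on chromosome 5 lies within the outer 5 Mb of the short arm. Over the 40845 other regions in the outer 5 Mb of autosomes the median gap was 809 bp.

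Ubiquitylated peaks outnumbered total H2A.Z peaks around TERT and the chromosome 5 Iroquois genes, and the order was the opposite around IRX3 and IRX5. The chromosome 5 regions held 797 ubiquitylated and 490 total H2A.Z peaks, a ratio of 1.63. Those peaks covered 364 and 216 kb, a ratio of 1.69, with mean widths of 457 and 440 bp. On chromosome 16 there were 43 ubiquitylated and 55 total H2A.Z peaks, a ratio of 0.782, over 17.9 and 20.7 kb with mean widths of 415 and 377 bp. The same ratio of peak numbers was 0.999 over the whole genome, 0.990 on the rest of chromosome 5, 1.03 on the rest of chromosome 16 and 1.24 in the outer 5 Mb of autosomes without the members. Peak numbers also depend on how many peaks were called in each list, and the differences between these ratios were not tested.

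Most total H2A.Z peaks on chromosome 5 coincided with a ubiquitylated peak, while many ubiquitylated peaks stood alone. Of the 849 regions, 405 (47.7%, Wilson 95% interval 44.4 to 51.1%) held peaks of both lists, 376 (44.3%, 41.0 to 47.6%) ubiquitylated peaks only and 68 (8.01%, 6.37 to 10.0%) total H2A.Z peaks only. These intervals treat regions as independent and cover counting error only. Seen from the peaks, 86.1% of total H2A.Z peaks lay in a shared region against 59.8% genome-wide, and 52.8% of ubiquitylated peaks against 60.1%. In the outer 5 Mb of autosomes without the members these shares were 75.5% and 60.4%. On chromosome 16, 30 of the 68 regions held both (44.1%, 32.9 to 55.9%), 13 ubiquitylated peaks only (19.1%, 11.5 to 30.0%) and 25 total H2A.Z peaks only (36.8%, 26.3 to 48.6%). Over all merged regions these shares were 41.9% for both, 28.9% for ubiquitylated peaks only and 29.2% for total H2A.Z peaks only. In the outer 5 Mb of autosomes they were 49.1%, 33.9% and 17.0%. The windows thus differed mainly in the single-list regions: total-only regions were the smallest class on chromosome 5, and ubiquitylated-only regions were the smallest on chromosome 16. With peaks of an IDR of at most 0.01, ubiquitylated-only regions were the most frequent class on chromosome 5 (402, with 252 shared and 70 total-only), and chromosome 16 had 17 total-only and 15 ubiquitylated-only regions. On chromosome 5 the median IDR was 0.0045 for total H2A.Z and 0.00112 for ubiquitylated peaks, so this limit does not act on both lists alike. The plot of region classes along the windows shows the classes without that limit.

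**Figure D1:**
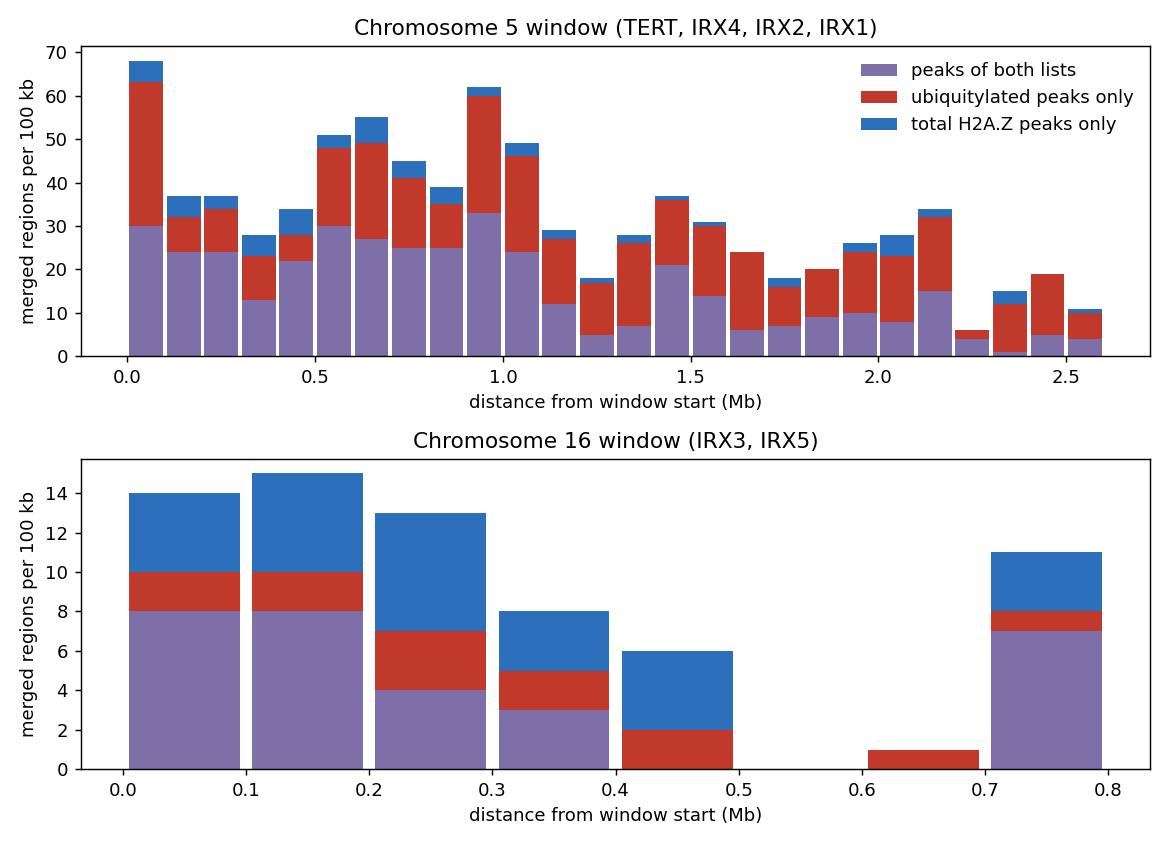
Number of merged regions per 100 kb (vertical axis) against distance from the start of each window (horizontal axis, Mb), stacked by the lists whose peaks they hold. Ubiquitylated-only regions outnumber total-only regions in 25 of 26 bins on chromosome 5 and in 1 of 8 on chromosome 16.

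Along chromosome 5 the regions thinned out towards the end of the window, and the mixture changed. The window was read in 4 parts of equal length, 0.65 Mb each. The first, from 1.2 to 1.85 Mb, held 415 regions per Mb, the second 434, the third 265 and the fourth, up to 3.8 Mb, 192. The share with peaks of both lists was 55.9%, 50.7%, 40.7% and 32.8% in the same order. Ubiquitylated-only regions made up 32.6%, 42.9%, 54.7% and 58.4%. Total-only regions were 11.5% of the first part and between 4.65% and 8.80% of the others. Single 100 kb bins held between 6 and 68 regions (median 30). The densest bin was the one at the window's start.

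On chromosome 16 the regions fell into 2 groups with a nearly empty stretch between them. Of 4 equal parts of 0.2 Mb, that from 54.25 to 54.45 Mb held 29 regions, that from 54.45 to 54.65 Mb 21, the next 6 and the last, up to 55.05 Mb, 12. The 100 kb bin that starts at 54.75 Mb held 0 regions and the following bin 1. The peak with the lowest IDR of the ubiquitylated list lay in the first group, in the region chr16:54286702-54287153 (IDR 8.38e-06), which also held a total H2A.Z peak (IDR 0.00504). The total H2A.Z peak with the lowest IDR lay in the second, in chr16:55043034-55044060 (IDR 6.32e-05, ubiquitylated IDR 0.00113). Both regions carried both forms and were in neither differential list.

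The comparison of ubiquitylated with total H2A.Z at each site gave almost a single direction on chromosome 5. In the authors' deposited table, which calls a region at an FDR of at most 0.05, 168 of the 849 regions (19.8%, Wilson interval 17.2 to 22.6%) were higher in Ub-H2A.Z, against a background of 9.39% over all merged regions. Only 7 (0.824%, 0.400 to 1.69%) were higher in total H2A.Z, against a background of 12.1%. The other 674 were in neither list. Differential regions as a whole were about as frequent as elsewhere, at 20.6% against 21.5% over all merged regions. Of the 175 differential regions, 96.0% (92.0 to 98.0%) were higher in Ub-H2A.Z. Among the 926 genome pieces of 2.6 Mb with at least 10 differential regions, 20 had a share as high. In the outer 5 Mb of autosomes without the members, 16.3% of regions were higher in Ub-H2A.Z and 6.08% in total H2A.Z, a less one-sided split in the same direction. On the rest of chromosome 5 the shares were 8.48% and 12.8%. None of these differences was tested, because neighbouring regions are not independent. How the authors normalized the libraries is not stated, and every direction is relative to that choice.

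Around IRX3 and IRX5 the shares were close to the background in both directions. The authors' deposited table called 5 of the 68 regions (7.35%, 3.18 to 16.1%) higher in Ub-H2A.Z and 7 (10.3%, 5.08 to 19.8%) higher in total H2A.Z. The intervals include the genome-wide 9.39% and 12.1%, and also the 11.8% found in each direction on the rest of chromosome 16. With 12 differential regions the split of 41.7% towards Ub-H2A.Z (19.3 to 68.0%) was imprecise, and its difference from the chromosome 5 window was not tested.

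**Figure D2:**
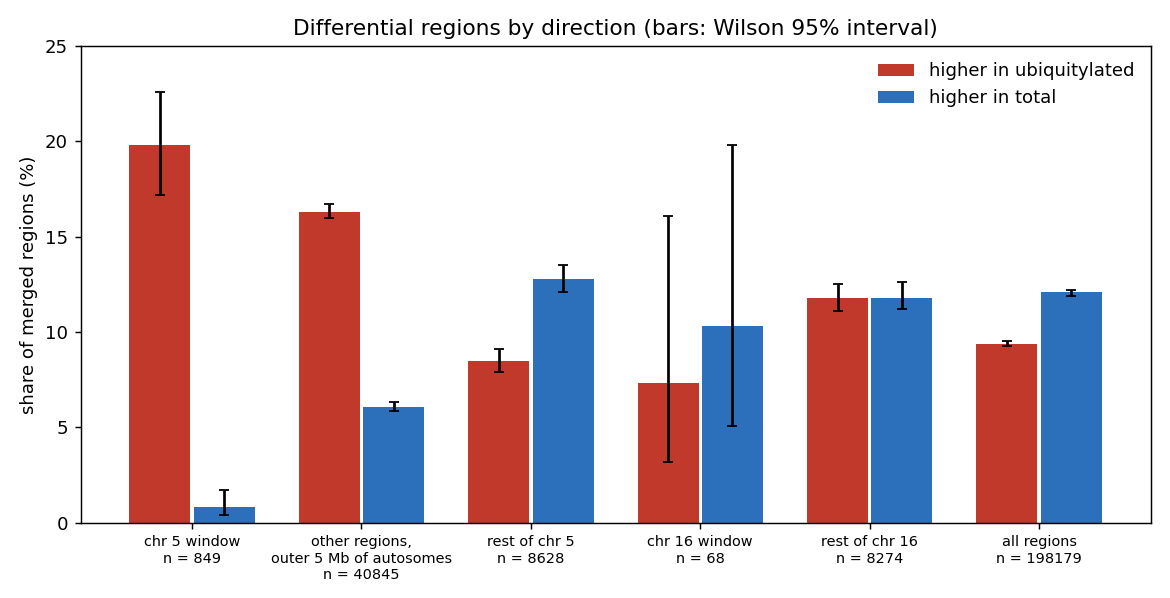
Share of merged regions (vertical axis, %) that the authors' deposited table calls higher in Ub-H2A.Z or in total H2A.Z, for each window, the outer 5 Mb of autosomes without the members, the rest of each chromosome and all regions. Error bars are Wilson 95% intervals for counting error only, and the chromosome 5 window stands at 19.8% and 0.824% where all regions stand at 9.39% and 12.1%.

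Among shared regions, too, the calls on chromosome 5 had 1 direction. Of its 405 shared regions, which hold a peak of each list, 61 (15.1%) were higher in Ub-H2A.Z and 0 in total H2A.Z, where 5.97% and 7.52% of shared regions were so genome-wide. In the outer 5 Mb of autosomes without the members these shares were 11.7% and 3.66%. In single-list regions the list that holds the peak nearly fixes the direction: genome-wide, 13604 ubiquitylated-only regions were higher in Ub-H2A.Z and 73 in total H2A.Z. Of the 376 ubiquitylated-only regions, 107 (28.5%) were higher in Ub-H2A.Z, against 23.8% genome-wide, 29.1% on the rest of chromosome 16 and 31.0% at the autosome ends. Of the 68 total-only regions, 7 (10.3%) were higher in total H2A.Z, against 30.5% genome-wide and 25.1% at the autosome ends. The remaining 61 total-only and 269 ubiquitylated-only regions were in neither differential list, so a peak missing from 1 list was usually no called difference. On chromosome 16 the called regions were 4 of 13 ubiquitylated-only, 6 of 25 total-only and 1 in each direction among the 30 shared regions.

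The changes were of moderate size. Over the 168 regions higher in Ub-H2A.Z on chromosome 5, the median of the log2 fold changes listed by the authors' deposited table was 0.63 (quartiles 0.53 and 0.76, range 0.35 to 1.82), and over all such regions of the genome 0.68. The base of the logarithm is not stated in the files and was read as 2, the scale that edgeR writes. Changes of at least 2-fold numbered 15 in the authors' deposited table (1.77% of the 849 regions against a background of 1.47%) and 0 towards total H2A.Z (background 2.39%), so the excess on chromosome 5 lay in the smaller changes. At an FDR of at most 0.01 the authors' deposited table held 96 regions higher in Ub-H2A.Z (11.3%, background 5.26%) and 5 higher in total H2A.Z (0.589%, background 7.21%). In the outer 5 Mb of autosomes without the members, the median towards Ub-H2A.Z was also 0.63. Changes of at least 2-fold there made up 1.79% of regions towards Ub-H2A.Z and 1.01% towards total H2A.Z. At an FDR of at most 0.01 these shares were 9.22% and 3.47%. The 7 regions higher in total H2A.Z are listed by the authors' deposited table at log2 fold changes between -0.95 and -0.63.

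The 3 regions with the lowest FDR lay towards the end of the chromosome 5 window. First among them in the authors' deposited table was chr5:3584580-3585404, 825 bp wide, at a log2 fold change of 1.51 and an FDR of 3.6e-16. It was followed there by chr5:3598943-3601129, a broad region of 2187 bp (0.94 in the authors' deposited table, FDR 7.1e-10). The authors' deposited table lists the third, chr5:3488661-3489678, at a log2 fold change of 0.99 and an FDR of 1.2e-07. These 3 regions were all within the last 0.65 Mb, the part with the fewest regions. The next were chr5:1930548-1932064 (0.86 in the authors' deposited table, FDR 1.8e-07), chr5:1565529-1566528 (1.17, FDR 3.1e-07) and chr5:2392500-2392901 (1.28, FDR 6.6e-07). The widest of these 3, chr5:1930548-1932064, spans 1517 bp. All 6 held a single ubiquitylated peak and no total H2A.Z peak. The largest change of the window in the authors' deposited table, 1.82 (FDR 1.9e-05), belonged to chr5:1507700-1507945, a narrow region of 246 bp whose peak had an IDR of 0.00999.

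**Figure D3:**
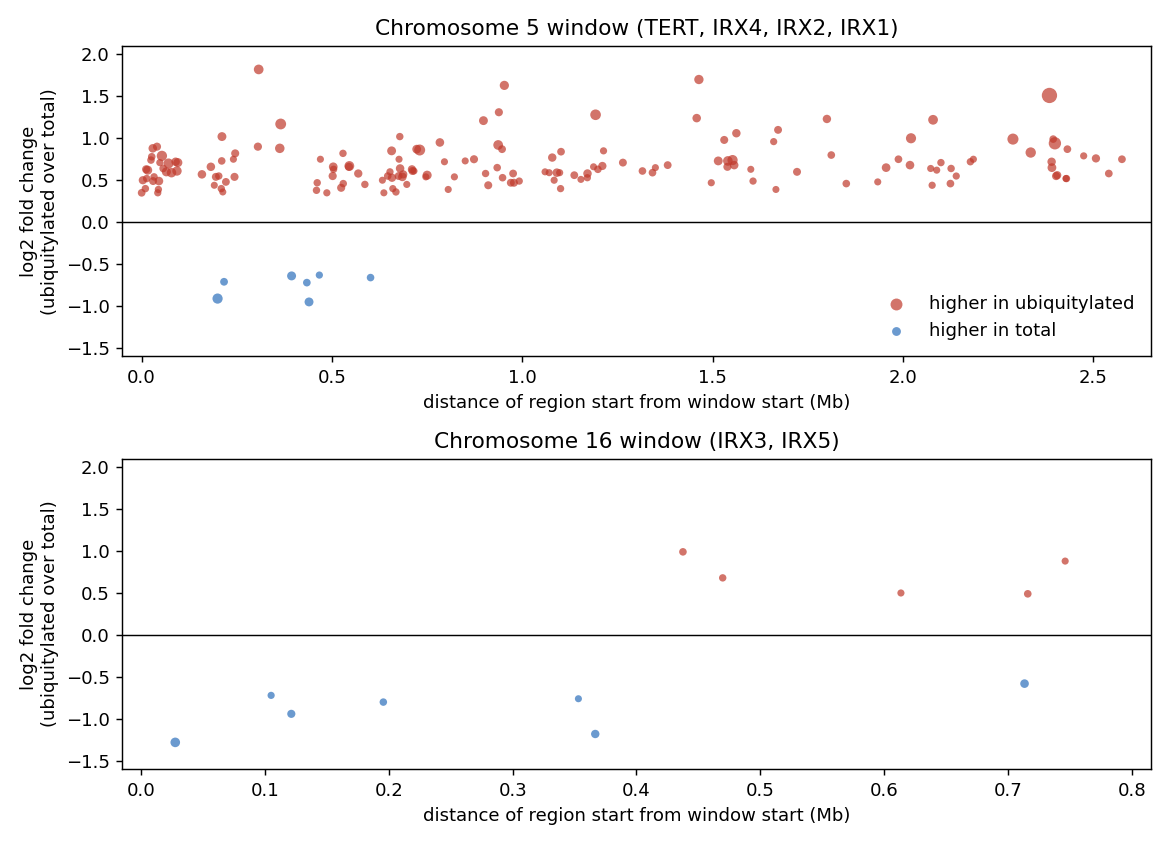
Log2 fold change of ubiquitylated over total H2A.Z from the authors' deposited table (vertical axis) for each differential region against the distance of its start from the window start (horizontal axis, Mb). Larger points have a lower FDR; on chromosome 5 the 7 regions below 0 all lie in the first 0.65 Mb of the window, and on chromosome 16 the 6 leftmost points lie below 0.

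The 7 regions higher in total H2A.Z formed a loose group in the first 0.65 Mb of the chromosome 5 window. They were not assigned to any gene. They lay within 402 kb, between 1399730 and 1801919, a stretch that held 152 merged regions, of which 27 were higher in Ub-H2A.Z. The lowest FDR in the authors' deposited table was that of chr5:1399730-1400385 (log2 fold change -0.91, FDR 3.3e-06). Then came chr5:1594121-1595233, the widest of the group at 1113 bp (-0.64, FDR 0.00021 in the authors' deposited table), and chr5:1639943-1640352 (-0.95, FDR 0.00025). The others were chr5:1416725-1417255, chr5:1634214-1634633, chr5:1801513-1801919 and chr5:1667023-1667325, with FDR values from 0.0071 to 0.031 in the authors' deposited table. Each was a total-only region. No region higher in total H2A.Z was listed from 1.85 Mb to the end of the window.

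Some of these regions had neighbours of the opposite direction within a few kilobases. The region chr5:1399730-1400385 lay 3753 bp after chr5:1395165-1395976 and 2528 bp before chr5:1402914-1403389, which the authors' deposited table lists at log2 fold changes of 0.54 and 0.55. Between it and the second of these lay chr5:1400465-1402773, a shared region of 2309 bp in neither differential list. The region chr5:1416725-1417255 (-0.71 in the authors' deposited table) had neighbours higher in Ub-H2A.Z at 2315 and 4378 bp, with 0.36 and 0.48. For chr5:1667023-1667325 (-0.63 in the authors' deposited table) such neighbours lay at 4784 and 2428 bp, with 0.47 and 0.75. In contrast, 3 regions higher in total H2A.Z between 1594121 and 1640352 followed each other with none of the other direction between them. The gaps between these 3 were 38980 and 5309 bp.

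Away from that group the called regions ran in 1 direction over long distances. From 1832617 to 3775505, over 1.94 Mb, the authors' deposited table lists 113 regions higher in Ub-H2A.Z (log2 fold changes of 0.35 to 1.70, median 0.64) and none higher in total H2A.Z. At an FDR of at most 0.01 the longest series in the authors' deposited table held 69 regions, from 1702035 to 3775505. At 0.05 the stretch held 591 merged regions in all: 261 with both forms, 291 ubiquitylated-only and 39 total-only. A second series of 28 regions opened the window, from 1200301 to 1395976 (196 kb, median 0.60 in the authors' deposited table). In 100 kb bins, regions higher in Ub-H2A.Z outnumbered those higher in total H2A.Z in 26 of 26 bins of the chromosome 5 window. Series end where the window ends, so those at its edges may be longer.

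On chromosome 16 the 12 differential regions changed direction along the window. The first 6 differential regions, from 54277620 to 54616999 (339 kb), were higher in total H2A.Z (median -0.87 on the log2 scale of the authors' deposited table). The next 3, from 54687459 to 54864205, were higher in Ub-H2A.Z (median 0.68 in the authors' deposited table). After them came 1 higher in total H2A.Z and 2 higher in Ub-H2A.Z. At an FDR of at most 0.01 only 4 calls remained, all higher in total H2A.Z, from 54277620 to 54964457. The order of directions was not tested. The strongest call was chr16:54277620-54278093 (log2 fold change -1.28, FDR 2.6e-05 in the authors' deposited table), a total-only region of 474 bp. It was followed among those higher in total H2A.Z by chr16:54963317-54964457 (-0.58, FDR 0.00062), chr16:54616712-54616999 (-1.18, FDR 0.0012) and chr16:54371308-54371661 (-0.94, FDR 0.0025), all in the authors' deposited table. The other 3, chr16:54445585-54445794, chr16:54354984-54355219 and chr16:54603139-54603361, had FDR values of 0.015 to 0.047 there. Towards Ub-H2A.Z no call in the authors' deposited table had an FDR under 0.01. The lowest was 0.011, for chr16:54965941-54966753 (0.49 on the log2 scale of the authors' deposited table). Those of chr16:54687459-54687683 (0.99), chr16:54719553-54719953 (0.68), chr16:54863518-54864205 (0.50) and chr16:54996122-54996288 (0.88) ran from 0.012 to 0.041 in the authors' deposited table.

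A pair of shared regions of opposite direction lay side by side near the end of the chromosome 16 window. The region chr16:54963317-54964457 was higher in total H2A.Z, and chr16:54965941-54966753, 1483 bp further on, was higher in Ub-H2A.Z. Both held a peak of each form. In the first, the ubiquitylated peak (chr16:54963500-54963917, IDR 0.000823) lay inside a total H2A.Z peak of 1141 bp (IDR 0.00350). In the second, the peaks started 1 base apart (54965941 and 54965942), with an IDR of 0.00294 for ubiquitylated and 0.00860 for total H2A.Z. The 2 regions between them were total-only and in neither differential list. The map of opposite neighbours shows the peaks of both lists there and in the chromosome 5 stretch.

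**Figure D4:**
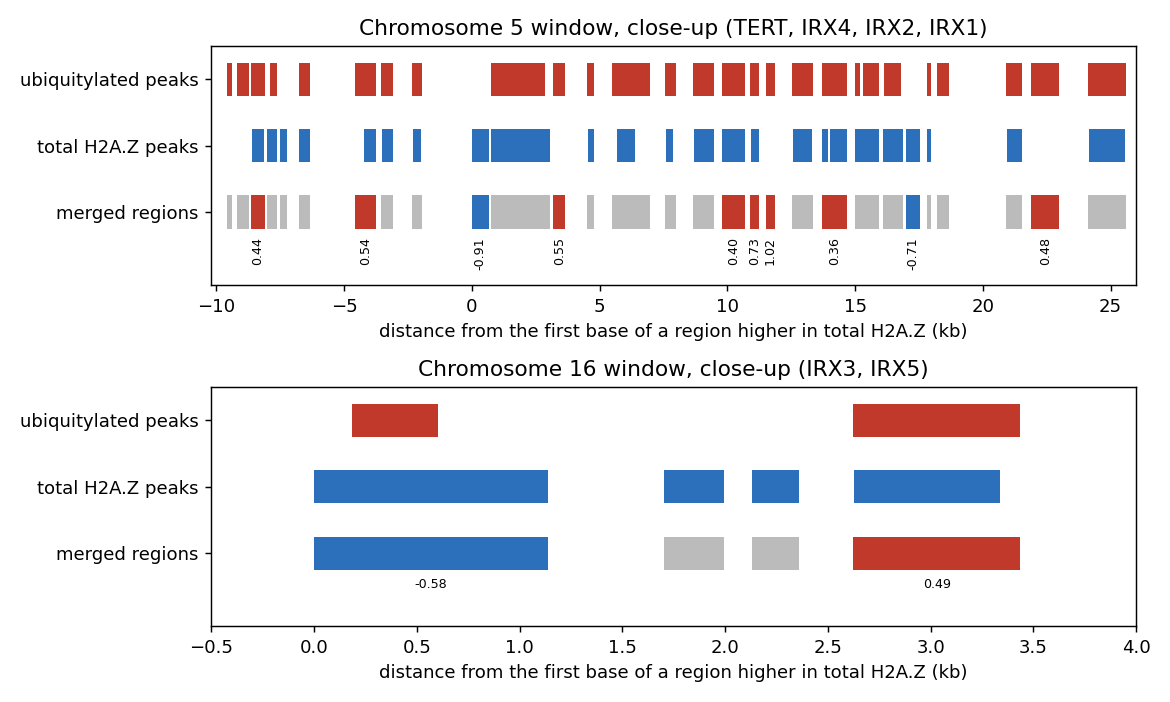
Peaks of each list and merged regions against distance in kb from the first base of a region higher in total H2A.Z, for chr5:1399730-1400385 and chr16:54963317-54964457. Merged regions are red where higher in Ub-H2A.Z, blue where higher in total H2A.Z and grey in neither list, with log2 fold changes from the authors' deposited table beneath; opposite calls lie 2528 bp apart on chromosome 5 and 1483 bp apart on chromosome 16.

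Regions higher in Ub-H2A.Z on chromosome 5 were wider at the median than the other regions of the window. Their median width was 553 bp (quartiles 333 and 978), compared with 311 bp for regions in neither list and 420 bp for the 7 calls towards total H2A.Z. Over all merged regions the corresponding medians were 507, 295 and 362 bp, and at the autosome ends without the members they were 607, 344 and 403 bp. The window thus lay above the genome and below the autosome ends in the width of regions higher in Ub-H2A.Z. Of the 26 chromosome 5 regions of at least 1500 bp, 17 (65.4%) were higher in Ub-H2A.Z and 0 in total H2A.Z. Genome-wide, 33.9% of regions of that width were higher in Ub-H2A.Z, and 43.2% in the outer 5 Mb of autosomes without the members. Towards total H2A.Z there were 242 of 2919 such regions genome-wide. At the autosome ends there were 19 of 1490, so few were higher in total H2A.Z there as well. The widest, chr5:1200301-1203074, spanned 2774 bp at the window's start and is listed by the authors' deposited table at a log2 fold change of 0.35 (FDR 0.0093). The second, chr5:1278685-1281110, spanned 2426 bp (0.59, FDR 3.5e-05 in the authors' deposited table). Both held peaks of both lists. The third was the region of 2309 bp named above. On chromosome 5 and over all merged regions, regions called in either direction were wider at the median than those in neither list. The differences in width were not tested, nor was whether width itself eases a call.

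The chromosome 16 window had 0 regions of 1500 bp or more. Its widest, chr16:54318799-54320240 with 1442 bp, held both forms (IDR 0.000166 in the ubiquitylated list, 0.00127 in the total list) and was in neither differential list. Medians were 401 bp for the 5 regions higher in Ub-H2A.Z, 288 bp for the 7 towards total H2A.Z and 340 bp for the other 56. The plot of widths shows that these 3 sets overlapped there.

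**Figure D5:**
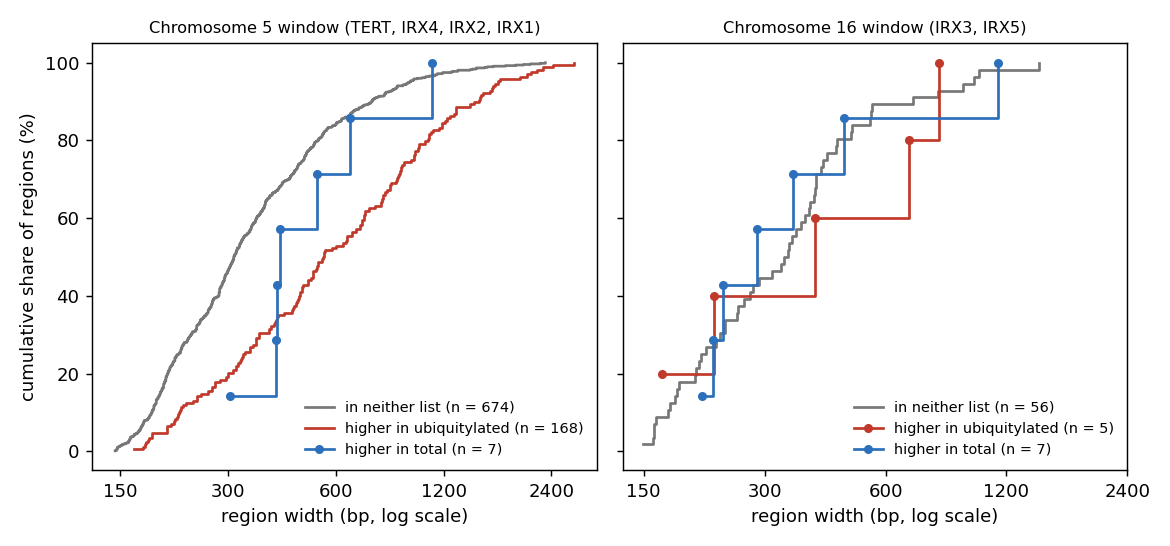
Cumulative share of regions (vertical axis, %) by width (horizontal axis, bp, log scale) for regions higher in Ub-H2A.Z, higher in total H2A.Z or in neither differential list. On chromosome 5 the regions higher in Ub-H2A.Z (median 553 bp) lie to the right of those in neither list (311 bp), and on chromosome 16 the curves cross.

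The authors' IDR showed how well peaks repeated between replicates. Ubiquitylated peaks had a median IDR of 0.00112 on chromosome 5 and 0.00105 on chromosome 16, and 0.00137 over the whole list. Total H2A.Z peaks had medians of 0.00450 and 0.00336, and 0.00335 over the whole list. Total H2A.Z peaks on chromosome 5 had a higher IDR than those of the full list by the mean as well, at 0.0105 against 0.00820. For ubiquitylated peaks the order turned with the summary used: the median was lower on chromosome 5, and the mean was higher, at 0.00574 against 0.00556. The peaks with the lowest IDR on chromosome 5 were in shared regions in neither differential list: chr5:2041270-2041490 for the ubiquitylated form (IDR 2.72e-07, total H2A.Z 0.000469) and chr5:2703171-2703474 for total H2A.Z (IDR 2.51e-05, ubiquitylated 0.000453).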

How the data were processed

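Chromatin immunoprecipitation sequencing of HEK293T cells was analysed from 4 lists. Per the submitters' processing notes, Bowtie, SAMtools, MACS2 and edgeR and the build hg19 were used; neither versions nor settings are stated. The deposited files, made by the authors, hold 1 peak list for each H2A.Z form, with a value per peak of at most 0.05 read as the IDR, a q-value-like measure, and 2 lists of differential regions with an FDR and a fold change, read as log2 (ubiquitylated over total). Whether the IDR is local or global is not stated. H3 enters no comparison of its own. Starts were raised by 1 base to give 1-based coordinates.

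Peaks were merged with Python 3.11.15 and pandas 2.3.3, and every differential region matched a merged region exactly. Shares have Wilson 95% intervals (scipy 1.17.1). No test of the members as a list was made, and no count model was fitted. Regions were named by rule: the 6 of lowest FDR per window and direction, the largest change, the 3 widest, the lowest IDR and the ends of series; the neighbours and the map were chosen after their values were seen. Members, windows and lists were chosen with earlier results of these data known. Merging was tested on simulated peaks. Alternatives were a stricter IDR or FDR, at least 2-fold changes, other rules of merging, overlap and window membership, other backgrounds, means and shared regions only.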

Additional observations from a re-analysis of the deposited data

How the results depend on the processing

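No paired analysis was possible because the lists hold no value per library, nor could single replicates be dropped; regions at gene starts need an hg19 annotation and were not run. Of 68 alternative values, 44 stayed within 1.5 times the reported value, among them all those for touching peaks, 50% overlap, window membership and other backgrounds. The alternative counts of calls on chromosome 5 drew on nearly the same calls, with at most 7 towards total H2A.Z. Their order was thus nearly fixed beforehand. In each, the chromosome 5 window had more calls towards Ub-H2A.Z (ubiquitylated) than towards total H2A.Z. With peaks of an IDR of at most 0.01, its shared regions fell to 252, below its 402 ubiquitylated-only ones, and chromosome 16 had 17 total-only against 15 ubiquitylated-only (25 against 13 before). At an FDR of at most 0.01 the chromosome 5 regions higher in Ub-H2A.Z numbered 96 (11.3%) and their longest series 69 (113 before). Chromosome 16 then had 0 higher in Ub-H2A.Z (background 5.26%) and 4 higher in total H2A.Z (5.88%, background 7.21%). At least 2-fold changes left 15 (1.77%) and 0 on chromosome 5 and 0 and 2 (2.94%) on chromosome 16. The backgrounds were 1.47% towards Ub-H2A.Z and 2.39% towards total H2A.Z. Among shared regions only, the counts were 61 (15.1%) and 0 (0% higher in total) on chromosome 5 and 1 and 1 (3.33% each) on chromosome 16. Genome-wide, 5.97% and 7.52% of shared regions were so called. By the mean, ubiquitylated peaks on chromosome 5 had an IDR of 0.00574, above the 0.00556 of the full list, where the median was lower. Fewer regions can be called under the stricter FDR, fold and class limits, by construction, and the IDR limit does not act on both lists alike.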

Other observations

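Outside the windows the shares called in each direction varied with position on both chromosomes. Over all merged regions, the authors' deposited table called 9.39% higher in Ub-H2A.Z and 12.1% higher in total H2A.Z. Before the chromosome 5 window, from 0 to 1.2 Mb, the authors' deposited table called 63 of 306 regions (20.6%) higher in Ub-H2A.Z (ubiquitylated) and 17 (5.56%) higher in total H2A.Z. Past IRX1, from 3.8 to 5 Mb, the authors' deposited table called 4 of 78 regions (5.13%) higher in Ub-H2A.Z and 0 in total H2A.Z. The regions per Mb were 255 before and 65.0 after the window. On chromosome 16, the 0.8 Mb before the window held 42 regions. Of these the authors' deposited table called 1 (2.38%) higher in Ub-H2A.Z and 10 (23.8%) in total H2A.Z. In the 0.8 Mb after the window, the side on which IRX6 follows, both shares were near those over all merged regions. The authors' deposited table called 7 of 88 (7.95%) higher in Ub-H2A.Z and 8 (9.09%) in total H2A.Z there. These stretches were chosen after the values of the windows were seen, and their differences were not tested.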
